A study of Homo sapiens with 21 samples.

Results

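NF-kB (nuclear factor kappa B) is the transcription factor family that switches on inflammatory genes, and the genes described here are 10 members of its circuit, found by gene symbol. They comprise the subunits NFKB1, NFKB2, RELA and RELB, the feedback inhibitors NFKBIA and TNFAIP3, the chemokines CXCL8, CXCL1 and CXCL2, and the adhesion molecule ICAM1. Among the 37637 features of the deposited count table, 9 of the 10 were matched, and CXCL1 is not analysed here. Of these 9, 7 passed a filter on low counts that kept 17951 features in all, while CXCL8 and CXCL2 did not.

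The cells were HepG2, an established human hepatocellular carcinoma line that keeps many hepatocyte functions. They were held for 24 h in serum-free DMEM with caffeine, a methylxanthine that blocks adenosine receptors and inhibits phosphodiesterases, at 0.01, 0.1, 1, 10, 100 or 1000 µM. Control cells got the same medium without caffeine, so all 7 groups, controls included, had been washed and deprived of serum for those 24 h, and the labels name no inflammatory stimulus. Each group had 3 replicates, which gave 21 libraries of poly(A)-selected RNA from this single line. The labels speak of triplicates without saying that these were grown apart, so p-values measure the spread between these libraries, which may in part be technical.

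In resting cells NF-kB dimers are held in the cytoplasm by IkB proteins, of which NFKBIA (IkB-alpha) is the best known. Signals from cytokine receptors activate the IkB kinase complex, IkB-alpha is phosphorylated and degraded, and the freed dimers enter the nucleus. There they induce their own brakes, since NFKBIA and TNFAIP3 (A20, an enzyme that edits ubiquitin chains upstream of the kinase) are direct targets, as are NFKB2 and RELB. They also induce the neutrophil-attracting chemokines CXCL8, CXCL1 and CXCL2 and ICAM1, the cell-surface ligand of leukocyte integrins. In hepatocytes the pathway is known for its part in the acute-phase response and in protection from TNF-induced death.

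The promoter sequences of 5 members are given because they carry the motif that defines this family and belong to genes with unlike readouts: NFKBIA, TNFAIP3 and ICAM1 were lower at the high doses, NFKB1 was not, and CXCL8 was near the detection limit. Each is the 250 bases upstream of a RefSeq transcript start (GRCh38.p14), written along the gene's strand, and capitals mark bases matched by a kB motif on either strand.
NFKBIA: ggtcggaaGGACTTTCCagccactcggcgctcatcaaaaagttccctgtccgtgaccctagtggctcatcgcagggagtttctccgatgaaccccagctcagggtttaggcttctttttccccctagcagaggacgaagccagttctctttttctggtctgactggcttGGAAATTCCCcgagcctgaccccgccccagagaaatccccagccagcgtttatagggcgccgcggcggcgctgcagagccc
TNFAIP3: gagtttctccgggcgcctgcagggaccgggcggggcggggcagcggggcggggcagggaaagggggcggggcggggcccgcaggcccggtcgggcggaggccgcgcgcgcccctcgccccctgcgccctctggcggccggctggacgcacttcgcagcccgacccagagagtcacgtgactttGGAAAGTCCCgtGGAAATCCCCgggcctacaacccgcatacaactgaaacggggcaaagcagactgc
ICAM1: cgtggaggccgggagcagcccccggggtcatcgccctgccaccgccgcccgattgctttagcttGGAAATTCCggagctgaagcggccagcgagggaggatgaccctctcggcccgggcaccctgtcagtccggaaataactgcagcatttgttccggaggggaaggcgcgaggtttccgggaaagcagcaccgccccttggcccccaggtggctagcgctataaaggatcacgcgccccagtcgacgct
NFKB1: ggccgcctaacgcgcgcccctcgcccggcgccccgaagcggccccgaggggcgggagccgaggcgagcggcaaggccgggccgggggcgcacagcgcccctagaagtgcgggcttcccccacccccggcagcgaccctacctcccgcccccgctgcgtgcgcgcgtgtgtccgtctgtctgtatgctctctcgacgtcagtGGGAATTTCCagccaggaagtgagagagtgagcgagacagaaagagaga
CXCL8: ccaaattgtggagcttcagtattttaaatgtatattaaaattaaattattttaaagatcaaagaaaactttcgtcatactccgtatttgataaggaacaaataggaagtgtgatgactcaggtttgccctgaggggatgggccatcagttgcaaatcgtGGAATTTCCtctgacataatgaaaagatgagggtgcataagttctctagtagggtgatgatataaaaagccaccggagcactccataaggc
These windows lie at chr14:35404750-35404999 (minus strand), chr6:137867009-137867258, chr19:10270870-10271119, chr4:102501109-102501358 and chr4:73740319-73740568 (all plus strand). Gene models of GENCODE 29 begin within the windows of TNFAIP3, NFKB1 and CXCL8 and 5′ of that of ICAM1.

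A pair of overlapping motifs were searched on both strands: the degenerate kB consensus, and the 9-base motif GGANNTTCC, which many consensus matches contain. In NFKBIA the 9-base motif occurred at -242 to -234 and at -81 to -73 from the transcript start, the second overlapping a consensus match. TNFAIP3 held consensus matches at -67 to -58 and -55 to -46. ICAM1 held the 9-base motif alone at -186 to -178, and so did CXCL8 at -91 to -83. NFKB1, whose transcript did not fall, held a consensus match at -49 to -40. Of the 9 members with an entry in the promoter set used here (all but RELB), 8 had at least 1 match in any of their windows and RELA had none. Either motif was found in 7.99% of 35114 promoter windows, and 11.5% of 11154 tested genes had a match in any window. A match is a description of the sequence and does not show that NF-kB was bound there.

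**Figure D1:**
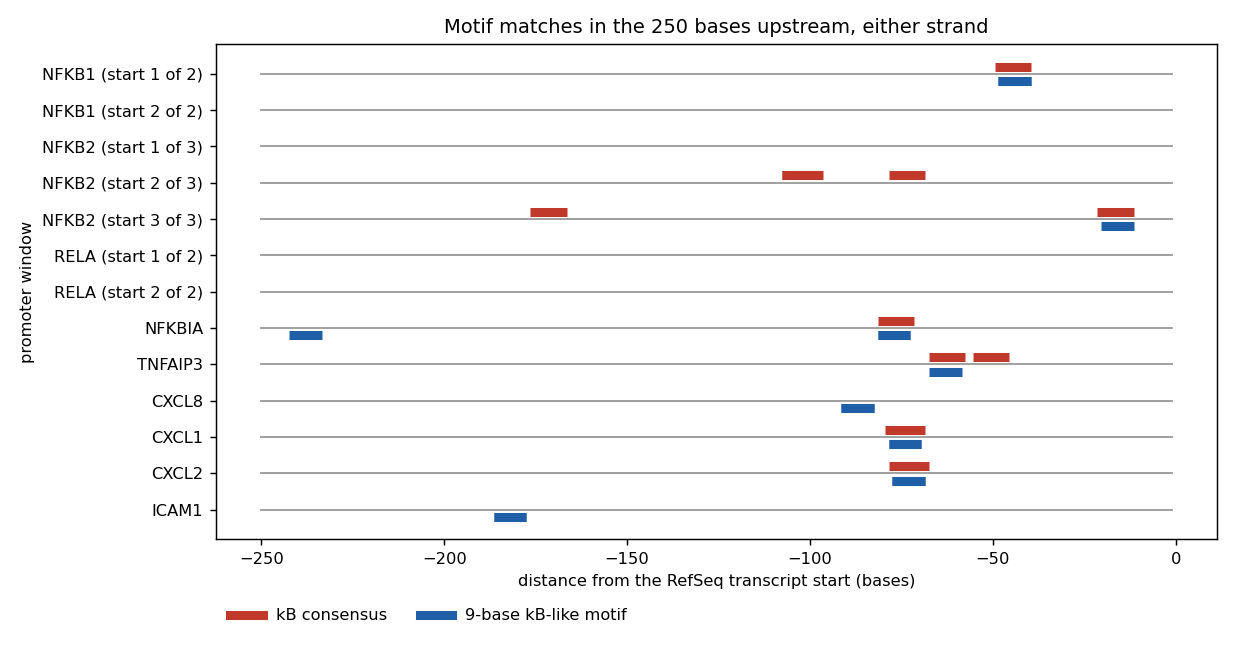
Positions of kB motif matches in the 250 bases upstream of each RefSeq transcript start of 9 members, in bases from the start; red bars are the kB consensus and blue bars the 9-base motif, on either strand. Most matches lie within the last 110 bases before the start, and both RELA windows are empty.

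Total counts per library ran from 23502519 to 44815552, with 23409 to 24754 features detected. The libraries fell into 3 sets by the counts of their 13 mitochondrial mRNAs, and these sets only partly followed dose. Set A held 11 libraries (all of control, 0.01 and 0.1 µM, and replicates 1 and 2 of 1 µM), with 9.95% to 14.2% of counts from all mitochondrially encoded genes. Set B held 7 libraries (replicate 3 of 1 µM, all of 10 µM, replicate 2 of 100 µM, and replicates 1 and 2 of 1000 µM), with 4.72% to 4.94%. Set C held replicates 1 and 3 of 100 µM and replicate 3 of 1000 µM, with 11.8% to 12.8%. The labels name no batch. All control libraries are in set A, and all 10 µM libraries are in set B. The 100 and 1000 µM libraries are in sets B and C. The only group linking set A to another set is 1 µM. The results of the 7 tested genes are therefore also given with the set as a term in the fit or within a set. In the fit with that term, every contrast of 10, 100 or 1000 µM with control rests on the 1 µM libraries. The 10 hepatocyte markers were all expressed, and summed to 34700 to 42889 CPM (counts scaled to a common library size) in control and 28202 to 29572 at 1000 µM. Of the 7 leukocyte markers matched, PTPRC, CD3E, TYROBP and ITGAM had at most 5 counts in any library. The leukocyte sum, of which these 4 were a trace, was 936 to 1062 CPM in control and 1393 to 1919 CPM at 1000 µM. Of the other 3, 1 was higher and 1 lower at 1000 µM at an adjusted p under 0.05 (edgeR), beside 57.6% of all features in either direction. Of the 6 fibroblast markers, all but PDGFRB had at most 5 counts in any library, and the sum was 3.18 to 3.85 CPM in control and 18.2 to 23.5 CPM at 1000 µM. The 3 endothelial markers matched summed to at most 0.283 CPM. The part of these marker levels in the results was not tested.

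Both feedback inhibitors, NFKB2, RELB, RELA and ICAM1 fell at 100 and 1000 µM caffeine, whereas NFKB1 did not. Both RELA calls (adjusted p = 0.56 and 0.226) and the NFKB1 call at 100 µM (adjusted p = 0.108) were lost in edgeR's fit with the library set as a term. At 1000 µM 6 of the 7 tested genes were lower and none was higher by edgeR's quasi-likelihood F-test, at an adjusted p under 0.05. Across all features 57.6% passed that test at this dose, 28.5% higher and 29.1% lower. At 100 µM all 7 passed, 6 lower and NFKB1 higher, beside 46.6% of all features (22.9% lower and 23.6% higher). The median log2 fold change of the 7 genes was -1.0 at 100 µM and -0.91 at 1000 µM, beside -0.01 over all features at both doses. At 100 µM 6 of the 7 had all 3 libraries below all 3 controls and NFKB1 had all above, and the same held at 1000 µM. Over all features 25.3% lay wholly below and 25.8% wholly above control at 100 µM, and 28.5% and 28.1% at 1000 µM. In this bulk RNA fewer cells of a type and less RNA per cell cannot be told apart.

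**Figure D2:**
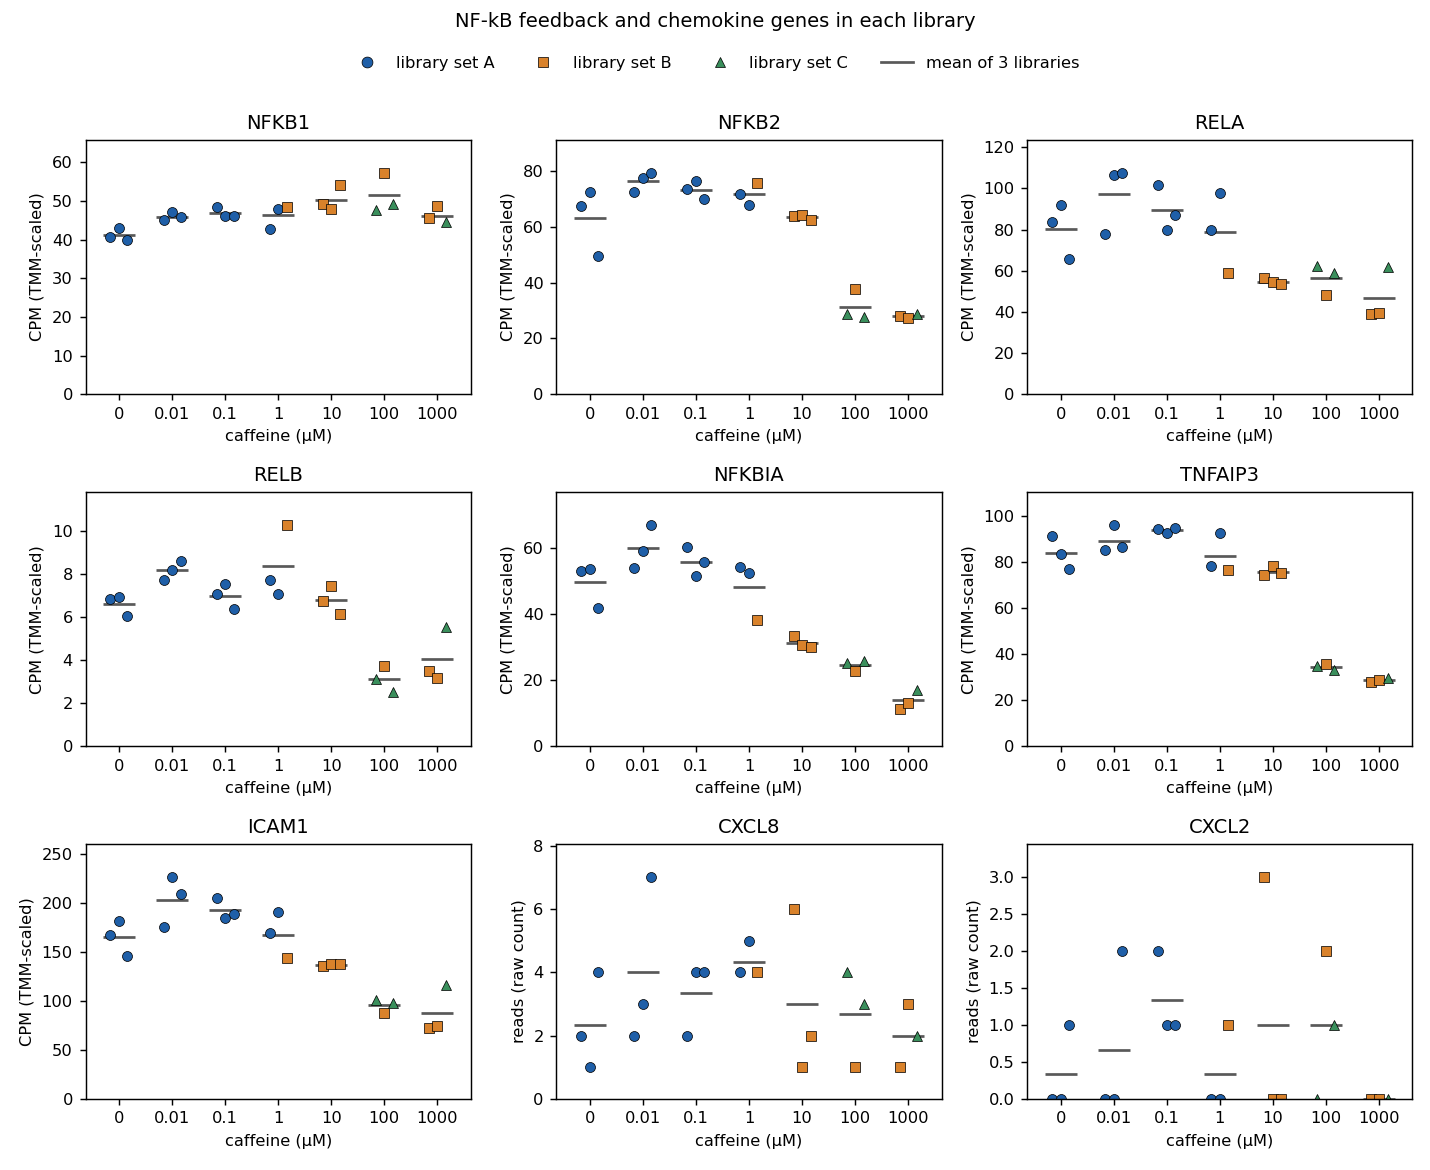
Level of each matched gene in each of the 21 libraries by caffeine dose, as CPM on TMM-scaled library sizes for the 7 tested genes and as raw reads for CXCL8 and CXCL2; bars are means of 3 libraries and symbols mark the library set. TNFAIP3, NFKB2 and NFKBIA lie below every control library at 100 and 1000 µM, and CXCL8 never exceeds 7 reads.

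TNFAIP3 (A20; chr6:137867188-137883312, plus strand) dropped between 10 and 100 µM. In control its level was 91.7, 83.7 and 77.0 CPM on TMM-scaled library sizes, and at 10 µM it was 74.4, 78.4 and 75.3 CPM. At 100 µM it was 34.8, 35.8 and 33.4 CPM, and at 1000 µM 27.9, 28.8 and 29.6 CPM. The control and 10 µM ranges overlap, while every library of the top doses lies below every library of the 5 other groups. The log2 fold change against control was -1.28 ± 0.0828 (SE) at 100 µM (adjusted p = 7.11e-10, edgeR) and -1.55 ± 0.0836 at 1000 µM (adjusted p = 1.56e-11), 3 libraries per group. When the library set was added to the fit these became -1.12 and -1.39, both called. An unnamed gene model (AL357060.1) overlaps TNFAIP3 on the opposite strand, and the use of strand in counting is not given in the sources used here.

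NFKBIA (IkB-alpha; chr14:35401511-35404749, minus strand) went down in steps from 10 µM upwards. Its control level was 53.1, 53.7 and 41.9 CPM. It was 33.5, 30.6 and 30.0 CPM at 10 µM, 25.3, 22.8 and 25.9 CPM at 100 µM, and 11.5, 13.1 and 17.2 CPM at 1000 µM. None of these 4 groups overlaps another, and the 1000 µM mean of 13.9 ± 2.95 CPM (SD, n = 3) rests on 369 to 450 reads per library. The log2 fold change was -0.66 ± 0.145 (SE) at 10 µM (adjusted p = 0.00761, edgeR), -1.01 ± 0.147 at 100 µM (adjusted p = 1.72e-05) and -1.84 ± 0.152 at 1000 µM (adjusted p = 5.26e-09). After adding the library set to the fit the 10 µM value was -0.18 and not called (adjusted p = 1), and those at 100 and 1000 µM were -0.74 and -1.48, both called.

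Between 100 and 1000 µM both inhibitors went down further. They were the 2 of 7 genes called in that comparison, beside 44% of all features (22.3% lower). NFKBIA differed by -0.83 ± 0.15 (log2, SE; adjusted p = 0.000183, edgeR) and TNFAIP3 by -0.27 ± 0.0829 (adjusted p = 0.0129). The TNFAIP3 call was lost without replicate 1 of 1000 µM (adjusted p = 0.0562), and without replicate 3 of 1000 µM RELA and ICAM1 were called as well, which makes 4 genes. Within set C, NFKBIA was 25.3 and 25.9 CPM at 100 µM and 17.2 CPM at 1000 µM, while TNFAIP3 was 34.8, 33.4 and 29.6 CPM.

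Among the subunits, NFKB2 (chr10:102394110-102402529, plus strand), which encodes the p100 precursor of p52, fell at both top doses by more than RELA did. Its control level was 67.4, 72.6 and 49.6 CPM and its 10 µM level 64.1, 64.4 and 62.6 CPM. It was 28.9, 37.9 and 27.7 CPM at 100 µM and 28.0, 27.5 and 28.7 CPM at 1000 µM. The lowest control library, replicate 3, is still above the highest of either top dose. The log2 fold change was 0.01 ± 0.118 (SE) at 10 µM, -1.0 ± 0.12 at 100 µM (adjusted p = 1.87e-06, edgeR) and -1.17 ± 0.121 at 1000 µM (adjusted p = 1.14e-07). Both top doses kept their calls when the library set was a term, at -1.0 and -1.23.

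RELB (chr19:45001430-45038198, plus strand) is the partner of p52 in the non-canonical branch of the pathway and was the least abundant of the 7. It stood at 6.81, 6.93 and 6.06 CPM in control and 6.76, 7.42 and 6.13 CPM at 10 µM. It was 3.11, 3.73 and 2.51 CPM at 100 µM, on 57 to 175 reads, and 3.50, 3.15 and 5.56 CPM at 1000 µM. Control and 10 µM overlap, both top doses lie below them, and the highest 1000 µM value is the one library of that dose in set C. The log2 fold change was -1.07 ± 0.189 (SE) at 100 µM (adjusted p = 0.000139, edgeR) and -0.71 ± 0.186 at 1000 µM (adjusted p = 0.00291). In the fit with the set term they were -1.63 and -1.26, both called.

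RELA (p65, the main transactivating subunit; chr11:65653596-65663094, minus strand) was the 1 of the 6 lower genes whose call at 1000 µM was lost in the fit with the library set as a term. It measured 83.9, 91.8 and 65.8 CPM in control, 56.3, 54.5 and 53.4 CPM at 10 µM, 62.4, 48.4 and 58.9 CPM at 100 µM, and 39.0, 39.6 and 61.9 CPM at 1000 µM. All libraries of the 3 top doses lie below all controls, but those 3 groups overlap one another, and the 61.9 CPM belongs to set C. The log2 fold change was -0.56 ± 0.195 (SE) at 10 µM and not called (adjusted p = 0.0613, edgeR), -0.51 ± 0.195 at 100 µM (adjusted p = 0.0394) and -0.78 ± 0.196 at 1000 µM (adjusted p = 0.00225). Adding the library set to the fit gave 0.03 at 10 µM (adjusted p = 1), -0.25 at 100 µM (adjusted p = 0.56) and -0.39 at 1000 µM (adjusted p = 0.226), none of them called. The call at 100 µM was also lost without any 1 of control replicates 1 and 2, 0.1 µM replicate 2, and 100 µM replicates 2 and 3, with values of -0.54 to -0.41 and adjusted p of 0.052 to 0.147, and with no low-count filter (-0.48, adjusted p = 0.122). AP001362.2 overlaps RELA on the opposite strand.

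NFKB1 (chr4:102501329-102617302, plus strand), which encodes the p105 precursor of p50, was the exception in direction. Its level was 40.7, 43.1 and 39.8 CPM in control, 49.2, 47.8 and 54.1 CPM at 10 µM, 47.7, 57.3 and 49.2 CPM at 100 µM, and 45.5, 48.6 and 44.5 CPM at 1000 µM. Every library of these doses is above every control library, and the 3 dose groups overlap one another. The log2 fold change was 0.29 ± 0.0815 (SE) at 10 µM (adjusted p = 0.0247, edgeR), 0.32 ± 0.0817 at 100 µM (adjusted p = 0.00344) and 0.17 ± 0.0817 at 1000 µM, which was not called (adjusted p = 0.0919). The values were 0.19, 0.33 and 0.12 in the fit with the set term, none called. The 10 µM call was also lost without any 1 of control replicates 1 and 3 and 10 µM replicates 1 and 3 (adjusted p of 0.0535 to 0.111).

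ICAM1 (chr19:10270835-10286615, plus strand) was the most abundant of the 7 and fell at the top doses. It measured 167, 182 and 146 CPM in control and 136, 138 and 138 CPM at 10 µM. It was 101, 87.3 and 98.4 CPM at 100 µM and 72.4, 74.4 and 116 CPM at 1000 µM. All libraries from 10 µM upwards lie below all controls, and the 1000 µM value of 116 CPM, in set C, is above all 3 libraries of 100 µM. The log2 fold change was -0.27 ± 0.147 (SE) at 10 µM (adjusted p = 0.228, edgeR), -0.79 ± 0.149 at 100 µM (adjusted p = 0.000259) and -0.91 ± 0.149 at 1000 µM (adjusted p = 3.24e-05). ICAM1 kept both calls in the fit with the set term, at -0.75 and -0.76. Gene models AC011511.2 and AC011511.5 overlap ICAM1 on the opposite strand.

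**Figure D3:**
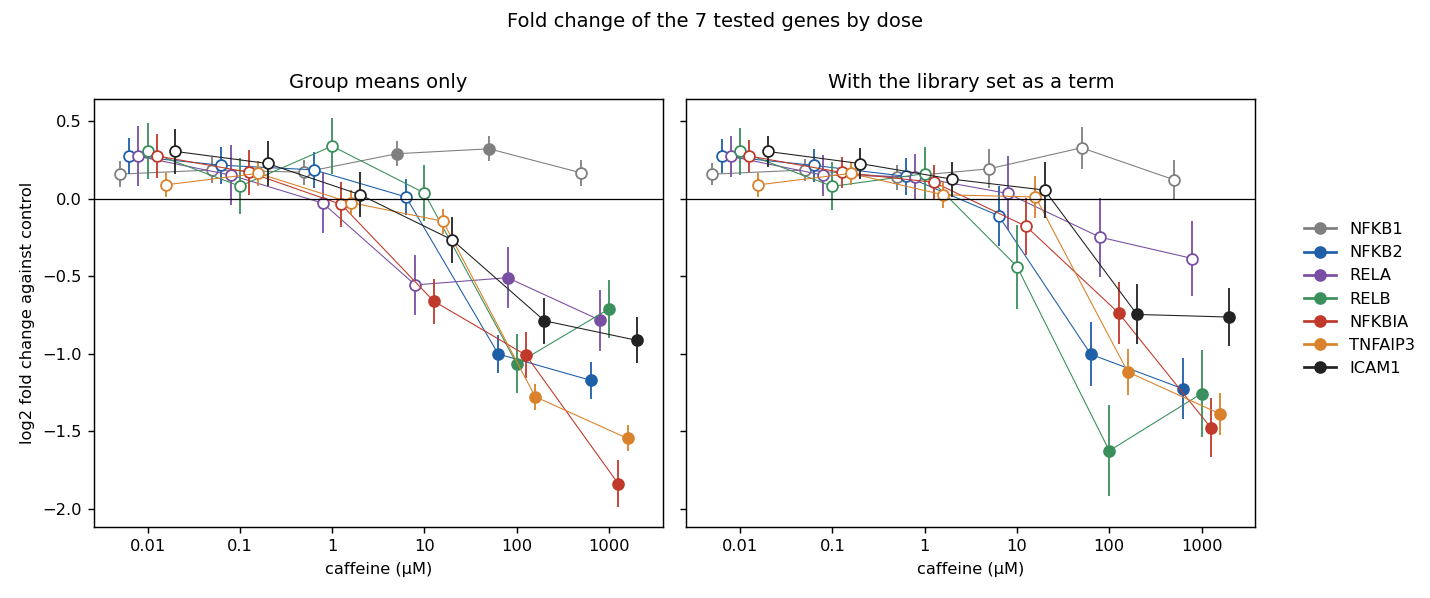
Log2 fold change against control of the 7 tested genes at each dose, from the fit of group means (left) and with the library set as a term (right); bars are ± 1 standard error, filled points have an adjusted p under 0.05, and points are shifted sideways for legibility. TNFAIP3, NFKBIA, NFKB2, RELB and ICAM1 are below 0 and filled at 100 and 1000 µM in both panels, RELA in the left panel only, and NFKB1 stays above 0.

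CXCL8 (interleukin 8; chr4:73740506-73743716, plus strand) and CXCL2 (chr4:74097035-74099293, minus strand), ligands of the neutrophil receptor CXCR2, were at the edge of detection. CXCL8 had 65 reads in all 21 libraries together, between 1 and 7 per library. Its control libraries had 2, 1 and 4 reads and its 1000 µM libraries 1, 3 and 2. CXCL2 had 14 reads in all, with 12 libraries at 0 and none above 3, and all 3 libraries of 1000 µM were at 0. A count of 0 allows up to 3 reads, which is 0.0669 to 0.128 CPM at these depths. A fall of either chemokine from these levels was not detectable at this depth, and CXCL8 did not exceed 0.212 CPM nor CXCL2 0.0874 CPM in any library of any dose. These limits cover counting error only. CXCL2 and its neighbours CXCL1 and CXCL3 are near-identical copies, so reads assigned to CXCL2 are uncertain.

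At 10 µM 2 of the 7 tested genes were called (NFKBIA lower, NFKB1 higher), beside 14.8% of all features (7.49% lower and 7.27% higher). At that dose 3 genes (RELA, NFKBIA and ICAM1) lay wholly below the controls and NFKB1 wholly above, beside 19.3% and 20.5% of all features. In the fit with the set term none of the 7 was called by edgeR at that dose, and 0.0279% of all features were. The 10 µM group and the control group share no library set, so in that fit the contrast rests on the 1 µM libraries that link the sets. Replicate 3 of 1 µM, in set B, had levels near the 10 µM group for some genes. RELA measured 59.0 CPM there and 80.0 and 97.6 CPM in replicates 1 and 2, and NFKBIA 38.2 CPM beside 54.3 and 52.5 CPM. ICAM1 measured 144 CPM in that library and 169 and 191 CPM in the other 2. RELB went the other way, at 10.3 CPM beside 7.72 and 7.07 CPM. Of all features, 36.8% were lower in replicate 3 than in both others and 40% were higher. Dose and library set cannot be told apart at 10 µM for these genes. The higher doses share no set with control either, so their set-term values against control rest on the same 1 µM libraries.

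Within set B, which spans 4 doses, TNFAIP3, NFKB2 and ICAM1 dropped by about as much as against control, RELB by more in value and NFKBIA and RELA by less, differences that were not tested. From the 3 libraries of 10 µM to the 2 of 1000 µM, 6 of the 7 were lower, beside 65.1% of all features called in either direction and 33.6% lower. The log2 differences were -1.46 ± 0.059 (SE) for TNFAIP3, -1.39 ± 0.083 for NFKBIA, -1.23 ± 0.0573 for NFKB2, -1.05 ± 0.131 for RELB, -0.94 ± 0.0507 for ICAM1 and -0.51 ± 0.0568 for RELA, with adjusted p of 7.71e-10 to 1.38e-05 (edgeR). NFKB1 differed by -0.13 ± 0.0675 and was not called (adjusted p = 0.105). Further contrasts within this set have 1 library on a side, assumed to vary like the others. From the single 100 µM library to the 2 of 1000 µM 6 genes were lower, all but RELB, beside 51% of all features called in either direction and 27.8% lower. In set C, with 2 libraries of 100 µM and 1 of 1000 µM and no test, the order was not the same for each gene. NFKBIA, TNFAIP3 and NFKB1 were below both 100 µM libraries there, NFKB2 and RELA lay between them, and ICAM1 and RELB were above both. From 10 µM to the single 100 µM library 5 genes were lower, beside 33.2% of all features called in either direction and 15.3% lower. TNFAIP3 differed by -1.09, RELB by -0.86, NFKB2 by -0.75, ICAM1 by -0.65 and NFKBIA by -0.46. From the single 1 µM library to 10 µM the differences ran from -0.59 for RELB to 0.07 for NFKB1, and they rest on that 1 library.

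**Figure D4:**
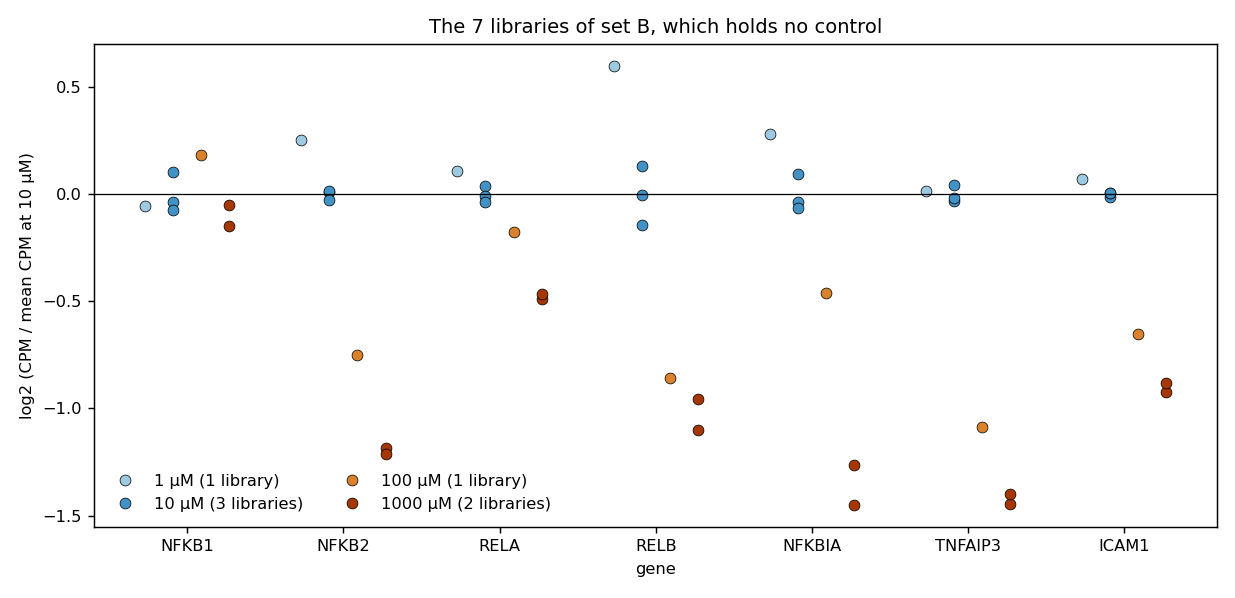
The 7 libraries of set B: log2 of each library's CPM over the mean CPM at 10 µM, for the 7 tested genes, coloured by dose. Both 1000 µM libraries lie below all 10 µM libraries for every gene except NFKB1, where 1 of the 2 lies within the 10 µM range.

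With the library set as a term, 5 of the 7 genes were lower at 100 µM and 5 at 1000 µM, beside 17.3% of all features (8.21% lower) and 38% (19.8% lower). The same 5 genes made up both counts: TNFAIP3, NFKBIA, NFKB2, RELB and ICAM1. Neither dose shares a set with control, and set A is linked to the others only by the 1 µM libraries. Of these only replicate 3 is in set B, so this fit cannot fully separate dose from set against control. The joint test of the 6 doses called all 7 genes, beside 73.6% of all features. The slope on dose rank called all 7, beside 55.3% of all features (25.7% falling and 29.6% rising), with 6 falling and NFKB1 rising by 0.03 ± 0.014 log2 per step (adjusted p = 0.047, edgeR). That NFKB1 call was made in 6 of 29 settings, and in the fit with the set term no slope was called for any of the 7 genes by edgeR, beside 4.27% of all features. In that fit the joint test called 5 genes (59.8% of all features) and 1000 against 100 µM called 3, all lower (46.3% of all features in either direction, 23.9% lower): NFKBIA, TNFAIP3 and NFKB1, the last at -0.21 ± 0.0741 (SE).

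Below 10 µM none of the 7 genes was called at any dose by edgeR, beside 0.0279% of all features at 0.01 µM, 0% at 0.1 µM and 0.106% at 1 µM. Without adjustment, p was under 0.05 for 1, 1 and 0 of the 7 at these doses, beside 2698, 1701 and 2811 of the 17951 features tested. The same counts of the 7 were 4, 3 and 0 in the fit with the set term, and 3, 2 and 1 by DESeq2's Wald test. Counts over all features are not given here for these other fits, so no excess over them can be read from these counts. DESeq2 and limma-voom also called none after adjustment. The fold changes at 0.01 µM were above 0 for all 7 genes, from 0.09 for TNFAIP3 to 0.31 for RELB, with a median of 0.27 beside -0.01 over all features. At 0.1 µM they were again all above 0, from 0.08 for RELB to 0.23 for ICAM1. Both comparisons share the same control libraries, of which replicate 3 was the lowest for all 7 genes.

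Per kilobase of exon, the order of the levels differed between control and 1000 µM. Lengths joined all exons annotated for a gene, and this order depends on that choice. In control ICAM1 stood highest at 44.5 ± 4.97 CPM per kb (SD, n = 3), then NFKBIA at 20.9 ± 2.81, TNFAIP3 at 16.7 ± 1.45, RELA at 14.7 ± 2.44, NFKB2 at 14.1 ± 2.70, NFKB1 at 6.58 ± 0.268 and RELB at 2.18 ± 0.156. Neighbours from NFKBIA to NFKB2 overlapped, and ICAM1, NFKB1 and RELB stood clear of theirs. At 1000 µM ICAM1 was still highest at 23.6 ± 6.64 CPM per kb, and RELA (8.57 ± 2.39) and NFKB1 (7.38 ± 0.348) came next, overlapping each other. NFKB2, NFKBIA and TNFAIP3 followed at 6.26 ± 0.142, 5.87 ± 1.24 and 5.70 ± 0.169. The NFKBIA libraries overlapped those of both its neighbours, NFKB2 and TNFAIP3 did not overlap each other, and RELB was lowest at 1.34 ± 0.428.

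Ratios taken within a library show the same reordering without reference to library size. The ratio of NFKB1 to NFKB2, per kilobase, was 0.478 ± 0.0851 (SD, n = 3) in control and 0.567 ± 0.0461 at 10 µM. It was 1.18 ± 0.0947 at 100 µM and 1.18 ± 0.0816 at 1000 µM. On these exonic lengths it was above 1 in all 6 libraries of the top doses and in none of the control libraries. Another choice of length would move where the ratio stands to 1. The ratio of NFKBIA to RELA, an inhibitor to the subunit it binds, was 1.43 ± 0.0662 in control and 1.32 ± 0.0427 at 10 µM. It was 1.01 ± 0.0743 at 100 µM and 0.693 ± 0.0618 at 1000 µM. The 3 libraries of 1000 µM gave 0.677, 0.761 and 0.640, of which the last is from set C, and the controls gave 1.46, 1.35 and 1.47. The ratio of TNFAIP3 to NFKB1 was 2.53 ± 0.226 in control, 1.88 ± 0.154 at 10 µM, 0.839 ± 0.0645 at 100 µM and 0.774 ± 0.0468 at 1000 µM. A ratio shows unequal change of its 2 genes, not which of them changed.

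Other genes of the pathway were read from 7 lists of 102 genes, of which 93 were matched and 71 passed the filter. No list gene was called by edgeR at 0.01, 0.1 or 1 µM, 5 were higher and 5 lower at 10 µM, 15 higher and 28 lower at 100 µM, and 22 higher and 33 lower at 1000 µM. Over all features, 7.27% were called higher and 7.49% lower at 10 µM, 23.6% higher and 22.9% lower at 100 µM, and 28.5% higher and 29.1% lower at 1000 µM. In the fit with the set term, 6 of the 71 were higher and 16 lower at 100 µM, beside 17.3% of all features called in either direction, and 16 were higher and 23 lower at 1000 µM, beside 38%. Of the list genes named below as changed at 1000 µM, LIF and PDLIM2 lost the call in that fit.

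Among the remaining REL and IkB proteins, all calls against control were lower. At both 100 and 1000 µM 5 of its 6 genes were lower and none higher, with medians of -0.87 and -1.16. The fit with the set term called 2 and 5 lower. NFKBIB (IkB-beta) was 63.8, 68.8 and 46.9 CPM in control and 26.5, 32.5 and 22.9 CPM at 100 µM, a log2 fold change of -1.13 (adjusted p = 1.43e-06, edgeR). NFKBID, a nuclear IkB, fell by 1.86 on the log2 scale at 1000 µM from a level of 2.87 ± 0.344 CPM (SD, n = 3). BCL3, a nuclear IkB that acts with p50 and p52, fell by 1.28. NFKBIE and NFKBIZ, named here after their values were seen, fell by 1.14 and 0.48 at 1000 µM. REL (c-Rel) was not called, at -0.12 ± 0.114 (SE).

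Receptors and adaptors split, with 10 of 19 higher and 8 lower at 1000 µM and a median of 0.36. The fit with the set term called 5 higher and 5 lower. BIRC3, a ubiquitin ligase of the TNF receptor complex and itself an NF-kB target, dropped from 4.92, 4.83 and 6.83 CPM in control to 0.51, 0.815 and 0.995 CPM, a log2 fold change of -2.87 ± 0.207 (adjusted p = 8.32e-10, edgeR). MYD88, the adaptor of Toll-like and interleukin 1 receptors, fell by 0.98 (-0.62 in the fit with the set term), and CD40 fell by 0.75 at 100 µM. TRAF3, which holds the non-canonical branch in check, rose by 1.07 to 27.9 ± 1.90 CPM (SD, n = 3) from 13.3 ± 0.597, and TNFRSF1A, the main TNF receptor of hepatocytes, rose by 0.95. LTBR rose by 0.46 at 100 µM, and that call was lost with the library set as a term (adjusted p = 0.28), as was the CD40 call (adjusted p = 0.343).

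Of the 13 kinases and ubiquitin ligases that act on IkB, 4 were higher and 5 lower at 1000 µM, with a median of 0.07. Adding the set term left 2 higher and 3 lower. MAP3K14 (NIK), the kinase of the non-canonical branch, fell by 1.19 on the log2 scale, from 10.7, 11.3 and 9.01 CPM in control to 4.39, 4.29 and 4.97 CPM. TAB3, a partner of the TAK1 kinase, fell by 0.69. BTRC, the ligase subunit that recognises phosphorylated IkB, rose by 1.12 from 32.4 ± 1.05 to 70.4 ± 10.1 CPM (SD, n = 3), and TAB1 rose by 0.71. IKBKG (NEMO) fell by 0.53 at 100 µM and was 0.16 and not called at 1000 µM (adjusted p = 0.141, edgeR). It has a near-identical partial copy in the genome, so its count is uncertain.

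Further feedback inhibitors did not share the direction of NFKBIA and TNFAIP3 as a group, with 3 of 11 higher and 6 lower at 1000 µM and a median of -0.31. With the set term 3 were higher and 3 lower. ZC3H12A (regnase-1), a ribonuclease that degrades cytokine mRNAs, fell by 1.53, and TNIP1, a partner of A20, fell by 1.02. TAX1BP1, another A20 partner, fell by 0.59 at 100 µM and was 0.06 and not called at 1000 µM (adjusted p = 0.574, edgeR). COMMD1, a factor in RELA turnover, rose by 1.57 at 1000 µM from 3.29 ± 0.756 to 9.75 ± 1.18 CPM (SD, n = 3). Its rise was 0.82 in the fit with the set term. CYLD, a deubiquitinase, rose by 0.80, and by 0.45 in that fit. PDLIM2 rose by 0.45 at 100 µM and fell by 0.55 at 1000 µM (adjusted p = 0.00854 and 0.00154, edgeR), and both calls were lost with the library set as a term (adjusted p = 0.31 and 0.0514).

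Of the 21 other chemokines and cytokines 9 passed the filter, and at 1000 µM 2 were higher and 3 lower. With the set term 2 were higher and 2 lower. CCL20, a lymphocyte and dendritic cell attractant, rose by 1.74 ± 0.14 (log2, SE), from 19.7, 23.7 and 27.7 CPM in control to 72.8, 83.8 and 80.1 CPM (adjusted p = 3.98e-09, edgeR). In the fit with the set term its rise was 1.41. IL18 fell by 2.54, from 15.0, 15.5 and 20.4 CPM to 2.70, 2.44 and 3.65 CPM, and LIF fell by 0.71, a call lost with the library set as a term (adjusted p = 0.0531). CX3CL1 rose by 0.40 at 100 µM, and it too was not called with that term (adjusted p = 0.0856), nor at 1000 µM in the fit without it (0.21, adjusted p = 0.105). Several others were near detection like CXCL8, including CXCL3 and CXCL5 with at most 1 read in any library, TNF with at most 3 and IL1B with at most 4. Of the CXC receptors and scavengers, CXCR2, CXCR4 and ACKR3 had at most 2 reads in any library.

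Among the other NF-kB targets 3 of 13 were higher and 6 lower at 1000 µM, with a median of -0.31. The set term gave 4 higher and 5 lower. TAP1, the antigen peptide transporter, fell by 1.42 from 26.1, 25.9 and 21.2 CPM to 9.52, 9.07 and 8.83 CPM. GADD45B, a stress sensor, fell by 1.37 (-0.85 in the fit with the set term), and IRF1, a transcription factor, fell by 0.98 at 100 µM. CFLAR, which blocks caspase 8, rose by 0.48 and CFB, a complement factor, by 0.22.

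**Figure D5:**
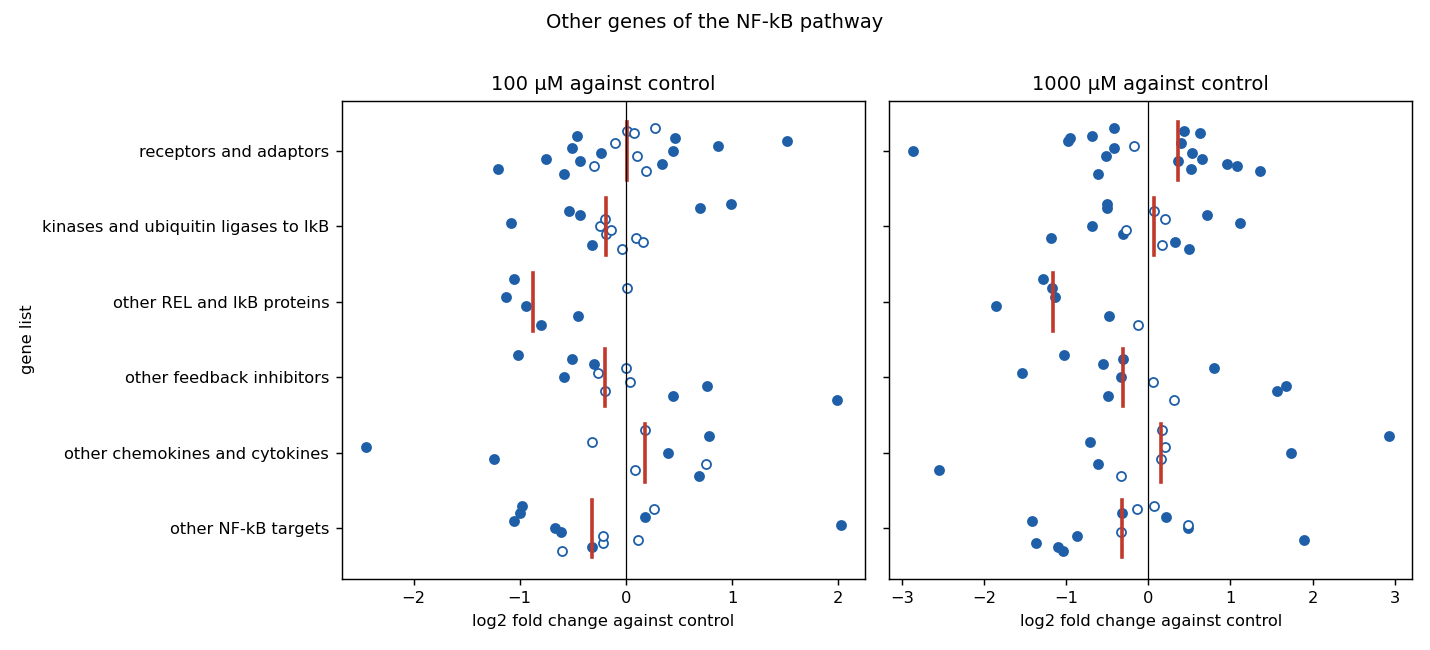
Log2 fold change against control of the pathway genes that passed the filter, at 100 µM (left) and 1000 µM (right), 1 point per gene in 6 lists; filled points have an adjusted p under 0.05, red bars are list medians, and the seventh list had no gene past the filter. The remaining REL and IkB proteins lie below 0 except for REL at 100 µM, and the other lists spread to both sides.

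The features whose dose pattern lay nearest to that of a member were sought among 10860 named features averaging 5 CPM or more, by the root mean square difference of log2 fold changes over the 6 doses. For NFKBIA they were MCAM, a cell adhesion glycoprotein (0.0891), UBTD1 (0.116) and WBP1 (0.139). MCAM had log2 fold changes of -0.48 at 10 µM, -0.97 at 100 µM and -1.75 at 1000 µM. For ICAM1 the nearest were GATA2, a transcription factor (0.0553), and TMUB2 (0.0619), and GATA2 had log2 fold changes of -0.23, -0.72 and -0.98 at those doses. These are descriptions over 7 groups that share their controls and library sets, and CXCL8 was too low for such a search.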

How the data were processed

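The authors deposited raw read counts per feature, whole numbers without normalization, for 21 libraries. The submitters' processing notes name HISAT2, DESeq2 and GRCh38. The counter, the annotation release, use of strand and read filters are not given in the sources used here. The table holds 21 further per-sample columns, which were left out.

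Genes were found by Ensembl identifier and symbol, which matched 32255 features, and coordinates and exonic lengths came from GENCODE 29. The 17951 features passing edgeR's filterByExpr by group were fitted in 1 model of group means with edgeR 4.0.16 (R 4.3.3), TMM scaling and the robust quasi-likelihood F-test, 2-sided, adjusted by the Benjamini-Hochberg method over all features, threshold 0.05. The standard error is the absolute log2 fold change over the square root of F. The slope used dose rank. Library sets came from average-linkage clustering of centred log2 counts of 13 mitochondrial mRNAs, with 3 clusters at the highest silhouette (0.571). Some contrasts within set B (100 against 10 µM, and 10 or 1000 against 1 µM) were chosen after seeing the data. The fits were tested on simulated counts. No replicate pair agreed within counting noise (chi-square per gene at least 3.59 over 21 pairs).

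The members and lists were chosen with earlier results of these data known. The members were all named, with up to 3 features of nearest dose pattern for NFKBIA and ICAM1, of which 1 is not reported here. In each list, up to 2 called genes per direction with the largest change and a mean of at least 1 CPM were named at 100 and at 1000 µM. The alternatives were DESeq2 1.42.0 size factors and its Wald test, limma-voom (limma 3.58.1), no low-count filter, a floor of 5 CPM on the mean, only the groups compared, the replicate number as a block, the library set as a term, single sets, and each library left out in turn.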

Additional observations from a re-analysis of the deposited data

How the results depend on the processing

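No fold change of the 7 genes that was called in the fit of group means changed sign under the alternatives or left-out libraries. TNFAIP3, NFKBIA, NFKB2, RELB and ICAM1 were called lower in all 30 settings at 100 µM and in all 30 at 1000 µM. The largest adjusted p was 0.0353, for RELB at 1000 µM. The setting with the library set as a term links these doses to control only through the 1 µM libraries. The library set as a term reduced the 10 µM count of 2 genes to 0 and the slope count of 7 to 0, and without the filter the 10 µM count was 1. Within set B the comparison of 1000 µM with the single 100 µM library of that set, which is assumed to vary like the others, called 6 genes in place of 2, whereas in set C, untested, 3 of the 7 genes were below both 100 µM libraries at 1000 µM and ICAM1 and RELB above both. RELA at 10 µM was called in 7 of 30 settings and was 0.03 with the set term. Leaving out 1 library at a time kept the count at 0 for 0.01, 0.1 and 1 µM and at 6 for 1000 µM, and gave 1 to 3 genes for 10 µM, 6 to 7 for 100 µM, the joint test and the slope, and 1 to 4 for 1000 against 100 µM. The 10 µM count was 1 without control replicate 1, 10 µM replicate 1 or 10 µM replicate 3. Depth limits CXCL8 and CXCL2, with at most 7 reads per library.

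Same-numbered libraries correlated above 0.1 in every pair for control with 0.1 µM and control with 10 µM, and for no other pair of groups (mean r between groups of -0.324 to 0.246). With the block, no gene was called at 0.1 µM and NFKB1 and NFKBIA at 10 µM, as without it. For the other groups the libraries share only a number. With the replicate number as a block, RELA at 100 µM was -0.51 and not called (adjusted p = 0.0568), which left 6 genes, and the NFKB1 slope was not called (adjusted p = 0.0578).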
